A study of Mus musculus with 9 samples.

Results

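The eye field transcription factors are a set of DNA-binding proteins that are switched on together in the anterior neural plate and mark the tissue that becomes the eye. Their levels were examined in whole retinas of mice at postnatal day 21 (P21). The set held 8 genes, taken by symbol from the deposited expression table: Pax6, Rax, Six3, Six6, Lhx2, Sox2, Meis1 and Meis2. All 8 were found among the 55487 genes in the table, and all 8 passed the filter on low values, so no member was left untested.

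Each of 3 genotypes had 3 RNA-seq libraries, all labelled C57 BL/6J, and each library pooled the retinas of a pair of animals. Cre- controls, whose genotype the labels give as WT, came from Cre- breeders. The tHet retinas were heterozygous for floxed Tet1, Tet2 and Tet3 and carried the Chx10-Cre-GFP transgene, which expresses Cre recombinase in retinal progenitor cells. The Tet tcKO retinas carried the same transgene and were homozygous for all of the floxed Tet alleles. Animals of both Cre+ genotypes were in-crossed, so Cre, its transgene and the breeding line cannot be told apart from each other in a comparison with Cre-, and tHet is the control that shares the transgene. TET enzymes oxidize methylated cytosine, the first step of active DNA demethylation, and the comparison asks how transcripts of the eye field genes stood in the mature retina after deletion of the enzymes had been directed to progenitors.

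Eye field genes work as a network. Six3, Six6, Rax and Pax6 encode homeodomain proteins that activate one another, Lhx2 encodes a LIM-homeodomain protein needed to go from the optic vesicle to the optic cup, and Sox2 acts with Pax6 in progenitors. Meis1 and Meis2 encode TALE homeodomain proteins that bind DNA together with PBX partners and act upstream of Pax6. In the mature retina the same genes are kept on in restricted cell types. Pax6 marks amacrine, horizontal and ganglion cells, Six3, Six6 and the Meis genes are found mainly in inner retinal neurons, and Rax, Lhx2 and Sox2 are found in Müller glia.

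The deposited values are CPM, the reads on a gene per 1000000 reads on all genes of the library. The 9 libraries held 9627927 to 21108256 reads on genes, and the members were counted with 92 to 13833 reads per library. The targeted genes were checked on whole-gene values, which include the exons that remain after recombination. Tet3 was at 99.2 to 152 CPM in Tet tcKO, below the 155 to 288 CPM of all other libraries, while the Tet1 and Tet2 ranges overlapped between all genotypes, so for Tet1 and Tet2 these values check nothing. A ribosomal RNA gene, CT010467.1, took 28.7% of the reads of Tet tcKO replicate 3 and 3.72% of those of tHet replicate 3, against 0.0409 to 0.226% in the other libraries. Reads taken by that gene lower the CPM of every other gene in the library, and Tet tcKO replicate 3 was the lowest Tet tcKO library for all 8 members. It was the lowest for 3 of the 8 once CT010467.1 was taken out of the totals. The cause of its high share was not tested, and members are therefore also given with this gene taken out.

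Six6 was the one eye field gene that passed the thresholds, and it rose in Tet tcKO against both controls. Between Tet tcKO and Cre-, 1 of 8 members was called (log2FC of at least 1 in size and a limma adjusted p under 0.01), and it was higher. Over all 21330 genes tested, 3.6% were called, with 2.03% higher and 1.57% lower. Between Tet tcKO and tHet, 1 of 8 members was called, against 3% of all genes, with 1.39% higher and 1.61% lower. Between tHet and Cre-, limma called 0 of 8 members, against 0.0422% of all genes (all of them higher), and 0 of 8 had an unadjusted p under 0.05. edgeR and DESeq2 also called 0 members there. At an adjusted p under 0.05 with no fold threshold the members called still numbered 1, 1 and 0 in these comparisons, against 6.5%, 5.95% and 0.0938% of all genes.

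Six6 (ENSMUSG00000021099.6, chromosome 12, 72939892 to 72944899 in GRCm38, plus strand) encodes a homeodomain protein of the sine oculis family that keeps retinal progenitors dividing by repressing cell cycle inhibitors. It was at 134, 96.8 and 137 CPM in Cre- replicates 1, 2 and 3, and at 96.0, 102 and 159 CPM in tHet. In Tet tcKO it was at 418, 344 and 257 CPM. No Tet tcKO library overlapped the controls, the lowest of them being replicate 3, and the libraries of both controls were mixed. Mean CPM was 122 ± 22.3 for Cre-, 119 ± 35.0 for tHet and 339.6 ± 80.6 for Tet tcKO (SD, n = 3 each). Against Cre- the log2FC of Tet tcKO was 1.46 (standard error 0.25, 95% confidence interval 0.94 to 1.97, limma adjusted p = 0.000658), a 2.77-fold higher mean. Against tHet it was 1.52 (standard error 0.25, interval 1.00 to 2.03, limma adjusted p = 0.000506), a 2.85-fold higher mean. In tHet versus Cre- the log2FC was -0.06 (interval -0.58 to 0.45, limma adjusted p = 0.9998). Among all genes tested, 361 (1.69%) had a log2FC at or above that of Six6 in Tet tcKO versus Cre-, and 212 (0.994%) in Tet tcKO versus tHet. Without Tet tcKO replicate 3 the log2FC was 1.64 against Cre- (limma adjusted p = 0.00331), and with CT010467.1 taken out it was 1.62. Over all alternatives tried the limma, edgeR or DESeq2 adjusted p ran from 1.64e-05 to 0.00924. In whole-retina RNA, a change in the number of cells of a type and a change in RNA per cell cannot be told apart.

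**Figure D1:**
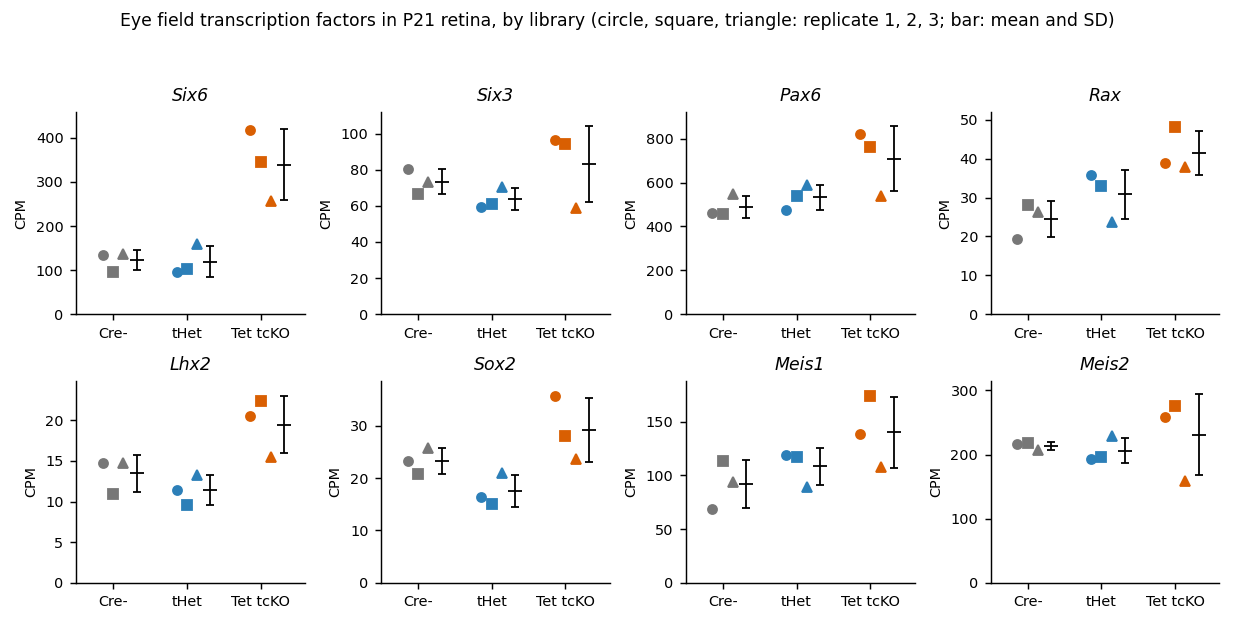
CPM of the 8 eye field genes in each library (y axes, linear from 0) by genotype (x axes), with circle, square and triangle for replicates 1, 2 and 3 and a bar for the mean and SD of 3 libraries. Six6 lies at 257 to 418 CPM in Tet tcKO and at 96.0 to 159 CPM in the control libraries, whereas for Meis2 the Tet tcKO libraries run from 159 to 275 CPM, on both sides of the controls.

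A window upstream of Six6 is shown because the gene of a second transcript that rose with Six6 spans it. The gene 4930447C04Rik (ENSMUSG00000021098.14, chromosome 12, 72881109 to 72940774, minus strand, protein coding) runs head to head with Six6, and part of its exons lies in the window before the Six6 start. The bases of that window before the first base of its untranslated region are printed, and these also lie within the gene. They are followed by all 250 bases of the same window of Six3, the paralog that did not pass the test. The Six3 window lies inside the annotated Six3 gene, so the start meant there is a later one. The antisense gene Gm28528 (chromosome 17, 85619326 to 85621001) spans the Six3 window and was not called. Both are RefSeq sequences in GRCm38.p6 on the plus strand, 5′ to 3′, and capitals mark CG dinucleotides, the bases at which cytosine is methylated.
Six6 upstream, chr12:72939632-72939721: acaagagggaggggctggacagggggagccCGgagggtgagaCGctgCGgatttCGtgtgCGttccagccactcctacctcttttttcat
Six3 upstream, chr17:85620584-85620833: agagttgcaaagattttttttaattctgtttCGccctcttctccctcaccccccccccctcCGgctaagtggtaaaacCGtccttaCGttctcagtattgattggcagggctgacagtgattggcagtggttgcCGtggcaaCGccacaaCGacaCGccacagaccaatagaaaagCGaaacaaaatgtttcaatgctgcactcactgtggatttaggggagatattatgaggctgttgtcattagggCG

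In the full 250 bases before the start, Six6 had 17 CG dinucleotides and Six3 had 10. RefSeq promoter windows, which run from 250 bases before to 50 bases after a start, were matched for 7 of the 8 members (9 windows). They held 13 to 34 CG dinucleotides, against a median of 7 over 32851 mouse promoters (quartiles 3 and 20). The Six6 window held 20, a count reached by 26.5% of promoters, and the Six3 window held 14, reached by 36.3%. The highest count among the matched members was 34, in 1 of the Lhx2 windows. The longest run of bases that the Six6 and Six3 windows had in common was 11 bases long and is shown in capitals within 30 bases of each. It holds ATTGG, the reverse complement of the CCAAT box. For Six6 it lies in the part of the window not printed above.
Six6, chr12:72939802-72939831: gtcgcagccTTGATTGGCAGagcagcctag
Six3, chr17:85620672-85620701: ttctcagtaTTGATTGGCAGggctgacagt
The run began 71 bases before the Six6 start and 153 bases before the Six3 start, and on either strand it was in 12 of the 32851 promoters (0.0365%) and in no window of another member. CCAAT on either strand, which overlaps the run, was in 37.4% of all promoters. No Rax window was matched. Since the run was picked as the longest in common, and any run of that length is rare, its low share is no test. The match is a description of these letters and was not tested as a site.

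The transcript 4930447C04Rik rose together with Six6. It was found by its overlap in the annotation and named after its values were seen. Its levels were 97.4, 175 and 154 CPM in the Cre- libraries, 158, 164 and 102 CPM in the tHet libraries and 319, 480 and 339 CPM in the Tet tcKO libraries. As for Six6, the Tet tcKO libraries all lay above the controls. Against Cre- its log2FC was 1.43 (standard error 0.26, limma adjusted p = 0.00122), and against tHet it was also 1.43 (limma adjusted p = 0.00138). The order of the libraries was not that of Six6. Tet tcKO replicate 2 was the highest for 4930447C04Rik and replicate 1 for Six6, and tHet replicate 3 was the lowest tHet library for 4930447C04Rik and the highest for Six6. The exons of both genes share 192 bases, 4.79% of the Six6 exon bases, and the strand setting of the counting is not given in the sources used here, so reads from that stretch could have been split between them.

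Across all 9 libraries, the genes whose profile was nearest to that of Six6 were Gm11240, Dennd3 and Angpt1. The root mean square difference of log2(CPM + 0.5), each gene centred on its mean, was 0.136, 0.149 and 0.158 for these genes. Dennd3, a regulator of vesicle traffic, had mean CPM of 1.24 ± 0.20 for Cre- and 4.70 ± 1.30 for Tet tcKO, and Angpt1, a ligand of the endothelial receptor TEK, had 2.06 ± 0.57 and 7.34 ± 1.93 (SD, n = 3 each). Both rose against both controls, which their choice by likeness to Six6 fixed in advance. Gm11240 averaged 0.12 CPM for Cre- and 1.22 CPM for Tet tcKO and was not called. At that level the pseudocount of 0.5 compresses its differences, so its likeness to Six6 holds only on the log2(CPM + 0.5) scale. By this measure the nearest other member was Lhx2 at 0.441, and the farthest was Meis2 at 0.69.

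Its paralog Six3 (ENSMUSG00000038805.10, chromosome 17, 85613608 to 85629302) encodes a repressor of Wnt signalling that protects the anterior neural plate. It was at 80.5, 66.4 and 73.2 CPM in the Cre- libraries, 59.6, 61.1 and 70.6 CPM in the tHet libraries and 96.4, 94.4 and 58.8 CPM in the Tet tcKO libraries. Tet tcKO replicates 1 and 2 were above every control library and replicate 3 was below every one. The log2FC of Tet tcKO was 0.15 against Cre- (interval -0.31 to 0.61, limma adjusted p = 0.884) and 0.35 against tHet (interval -0.11 to 0.81, limma adjusted p = 0.467). With CT010467.1 taken out, replicate 3 moved to 82.5 CPM and all Tet tcKO libraries were above both controls.

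The ratio of Six6 to Six3 within a library does not depend on what else the library holds. It was 1.66, 1.46 and 1.87 for Cre-, 1.61, 1.67 and 2.25 for tHet and 4.33, 3.65 and 4.37 for Tet tcKO. All Tet tcKO ratios lay above all control ratios, and replicate 3 was the highest of its genotype. The mean ratio was 2.48 times that of Cre- and 2.23 times that of tHet (exact two-sided permutation p = 0.1 for each, the smallest that 3 libraries against 3 can give). Six6 over Meis2 had means of 0.576 ± 0.116 for Cre-, 0.57 ± 0.111 for tHet and 1.49 ± 0.211 for Tet tcKO (SD, n = 3 each), again with no overlap. Of the 7 ratios of Six6 to another member, all were higher in every Tet tcKO library than in every tHet library, and all but Six6 over Rax were higher than in every Cre- library. The ratio to Rax overlapped that of Cre-, with a mean 1.58 times as high (exact two-sided permutation p = 0.2). These ratios share Six6 as numerator and are not independent of each other. Six6 is also the member that was called in these same libraries. Higher ratios to members that were not called follow largely from that and are no separate test of its rise.

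**Figure D2:**
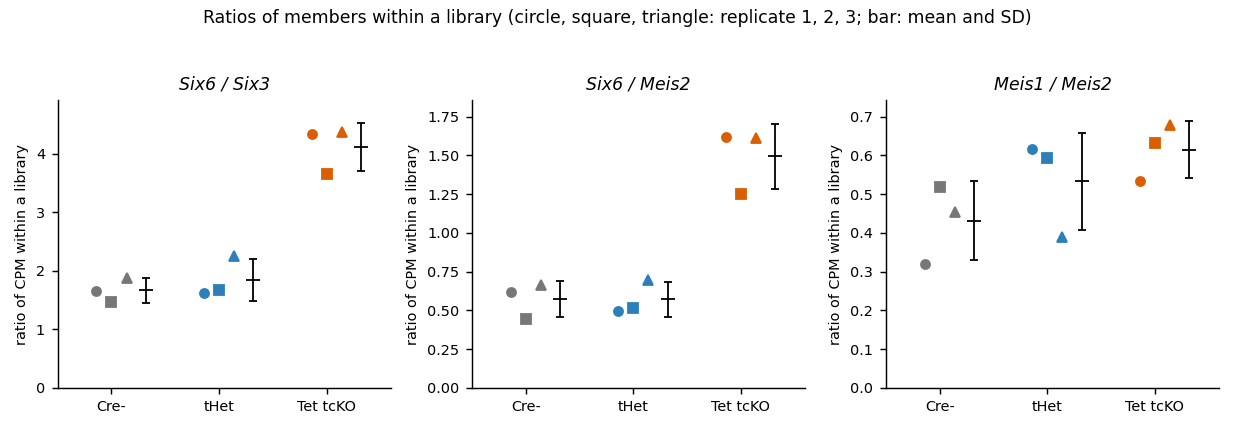
Ratio of CPM within a library (y axes, no unit, linear from 0) for Six6 over Six3, Six6 over Meis2 and Meis1 over Meis2, by genotype (x axes), with circle, square and triangle for replicates 1, 2 and 3 and a bar for the mean and SD of 3 libraries. Six6 over Six3 lies at 3.65 to 4.37 in Tet tcKO and at 1.46 to 2.25 in the control libraries, and Meis1 over Meis2 overlaps between Tet tcKO and tHet.

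Pax6 (ENSMUSG00000027168.21, chromosome 2, 105668900 to 105697364), the paired-box master regulator of eye formation, was the most abundant member in CPM in every library. It was at 462, 457 and 548 CPM in the Cre- libraries, 473, 538 and 588 CPM in the tHet libraries and 821, 763 and 540 CPM in the Tet tcKO libraries. Tet tcKO replicates 1 and 2 lay above every control library and replicate 3 among them. The log2FC of Tet tcKO was 0.52 against Cre- (interval 0.01 to 1.02, limma adjusted p = 0.291) and 0.39 against tHet (limma adjusted p = 0.450). With CT010467.1 taken out the Tet tcKO libraries ran from 758 to 822 CPM, above all control libraries at 457 to 611 CPM, and the log2FC was 0.68 against Cre- (limma adjusted p = 0.0141, the lowest over the alternatives, which reached 0.637). It stayed under the fold threshold.

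Rax (ENSMUSG00000024518.4), the retinal homeobox gene without which no eye forms, had the next largest log2FC after Six6 against Cre-. It was at 19.3, 28.1 and 26.2 CPM in the Cre- libraries, 35.7, 33.0 and 23.7 CPM in the tHet libraries and 38.8, 48.1 and 37.8 CPM in the Tet tcKO libraries. Every Tet tcKO library was above every control library, by a narrow margin over tHet replicate 1. The log2FC of Tet tcKO was 0.76 against Cre- (standard error 0.23, interval 0.27 to 1.25, limma adjusted p = 0.0578) and 0.44 against tHet (limma adjusted p = 0.353). The adjusted p against Cre- ran from 0.000468 with DESeq2 to 0.261 over the alternatives, so whether Rax passed 0.05 depended on the setting, and the fold threshold was not reached under any of them. An antisense transcript, Raxos1, shares 1604 bases with the exons of Rax, 27.4% of them. It averaged 4.77, 5.65 and 3.33 CPM for Cre-, tHet and Tet tcKO and was not called (log2FC -0.47 against Cre-, limma adjusted p = 0.522).

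Lhx2 (ENSMUSG00000000247.11, chromosome 2, 38339281 to 38369733) was the least abundant member in CPM in every library. It was at 14.8, 10.9 and 14.8 CPM in the Cre- libraries, 11.4, 9.56 and 13.3 CPM in the tHet libraries and 20.5, 22.4 and 15.5 CPM in the Tet tcKO libraries. The Tet tcKO libraries were all above the control libraries, replicate 3 only just. The log2FC of Tet tcKO was 0.51 against Cre- (interval -0.01 to 1.04, limma adjusted p = 0.332) and 0.74 against tHet (interval 0.21 to 1.27, limma adjusted p = 0.0994).

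Sox2 (ENSMUSG00000074637.7, chromosome 3, 34650405 to 34652461), the HMG-box factor of neural progenitors and Müller glia, was at 23.3, 20.8 and 25.8 CPM in the Cre- libraries, 16.4, 15.1 and 20.9 CPM in the tHet libraries and 35.7, 28.0 and 23.7 CPM in the Tet tcKO libraries. Its Tet tcKO libraries were above all tHet libraries, and replicate 3 overlapped Cre-. The log2FC was 0.72 in Tet tcKO versus tHet (interval 0.23 to 1.21, limma adjusted p = 0.0835), 0.30 in Tet tcKO versus Cre- (limma adjusted p = 0.658) and -0.41 in tHet versus Cre-, the lowest of the members there (interval -0.90 to 0.08, limma adjusted p = 0.9998). Sox2 lies within Sox2ot on the same strand, with 0 exon bases shared. Sox2ot averaged 16.5 CPM for Cre- and 20.5 CPM for tHet, with Tet tcKO between them, and was not called in any comparison.

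Meis1 (ENSMUSG00000020160.18, chromosome 11, 18879817 to 19018985), one of a pair of paralogous TALE genes, was at 68.9, 113 and 93.6 CPM in the Cre- libraries, 119, 117 and 88.9 CPM in the tHet libraries and 138, 174 and 108 CPM in the Tet tcKO libraries. The libraries of all genotypes overlapped. Its log2FC in Tet tcKO was 0.61 against Cre- (interval 0.11 to 1.10, limma adjusted p = 0.167) and 0.35 against tHet (limma adjusted p = 0.497). Meis2 (ENSMUSG00000027210.20, chromosome 2, 115863064 to 116065839), the more abundant of the pair, was at 216, 218 and 206 CPM in the Cre- libraries, 194, 197 and 228 CPM in the tHet libraries and 258, 275 and 159 CPM in the Tet tcKO libraries, with replicate 3 again below every control. Its log2FC in Tet tcKO was 0.07 against Cre- (interval -0.40 to 0.55, limma adjusted p = 0.956) and 0.13 against tHet (limma adjusted p = 0.855). Within a library, Meis1 over Meis2 was 0.319, 0.519 and 0.454 for Cre-, 0.616, 0.594 and 0.39 for tHet and 0.534, 0.632 and 0.678 for Tet tcKO, higher in every Tet tcKO library than in every Cre- library (exact two-sided permutation p = 0.1) and overlapping tHet.

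**Figure D3:**
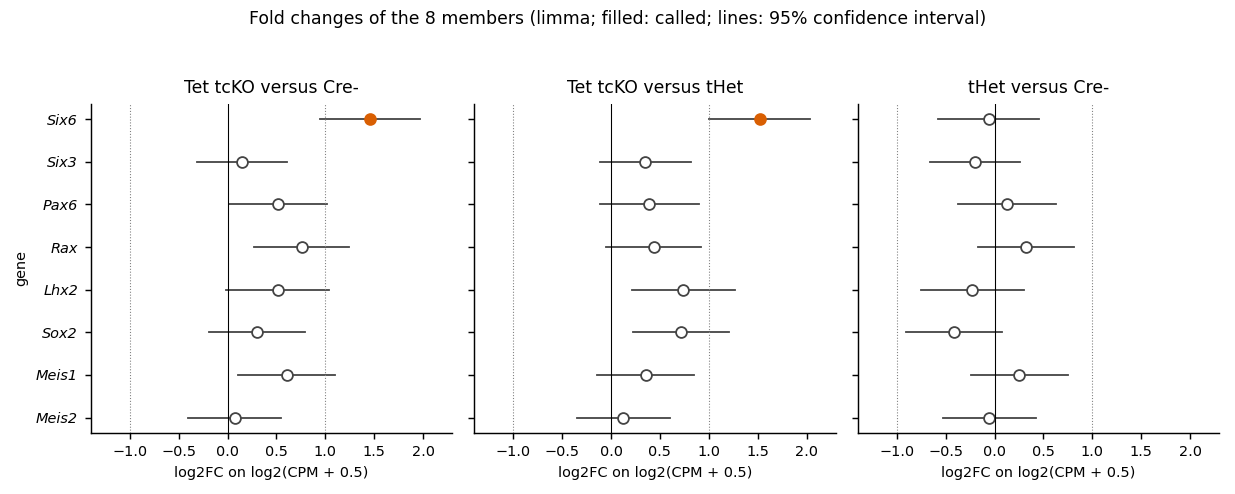
Log2FC on log2(CPM + 0.5) (x axes) of the 8 members (y axis) in each of the 3 comparisons, with 95% confidence intervals from limma as lines, filled points for called genes and dotted lines at a log2FC of 1 in either direction. Six6 is filled at 1.46 and 1.52 in the comparisons with Tet tcKO, and the members in tHet versus Cre- lie between -0.41 and 0.32.

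As a group, all 8 members had a positive log2FC in Tet tcKO versus Cre-, with a median of 0.52, where the median over all genes tested was 0.0012. Meis2 turned negative there when Tet tcKO replicate 1 (-0.0282) or replicate 2 (-0.0737) was left out. In Tet tcKO versus tHet all 8 were again positive, with a median of 0.42 against -0.06 over all genes. The Tet tcKO libraries are shared by both comparisons. In tHet versus Cre- the members' median was -0.06, against 0.06 over all genes, with 3 members positive and 5 negative. An unadjusted p under 0.05 was reached by 4 of 8 members against Cre- and by 3 of 8 against tHet, where 16.1% and 17.5% of all genes reached it. In tHet versus Cre- 0 of 8 did, against 4.55% of all genes.

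For 3 of 8 members the lowest Tet tcKO library was above the highest Cre- library (Six6, Rax and Lhx2), against 10% of all genes, and for 4 of 8 it was above the highest tHet library (those members and Sox2), against 7.35% of all genes. In tHet versus Cre- this held for 0 of 8, against 5.78% of all genes. With CT010467.1 taken out of the totals this was so for 8 of 8 members against Cre- and for 7 of 8 against tHet, all but Meis2. The shares over all genes grew as well, to 23.3% and 19%, and to 6.53% in tHet versus Cre-, where it stayed at 0 of 8 members. Taking that gene out moved the median log2FC of all genes in Tet tcKO versus Cre- to 0.14, and it moved the split of called genes from 434 higher and 334 lower to 607 higher and 221 lower. Against tHet the split moved from 297 higher and 343 lower to 424 higher and 215 lower. On that scale the log2FC against Cre- ran from 0.24 for Meis2 and 0.31 for Six3 to 0.92 for Rax and 1.62 for Six6, and Six6 remained the called member.

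The order of the members was compared per length, as CPM per kilobase of annotated exon. In Cre- the order was Pax6 at 41.8 ± 4.35, Six6 at 30.5 ± 5.56, Meis2 at 17.7 ± 0.52, Six3 at 13.5 ± 1.30, Sox2 at 11.3 ± 1.21, Meis1 at 8.73 ± 2.11, Rax at 4.19 ± 0.79 and Lhx2 at 3.07 ± 0.51 (SD, n = 3 each). Neighbours whose libraries overlapped were Six3 with Sox2, Sox2 with Meis1, and Rax with Lhx2. In tHet the order was the same but for Meis1 and Sox2, which changed places and overlapped, as did Six3 and Meis1. In Tet tcKO, Six6 came first at 84.7 ± 20.1 and Pax6 next at 60.6 ± 12.7. Their ranges overlapped, from 64.1 to 104 and from 46.2 to 70.2, but within each of the 3 Tet tcKO libraries Six6 was above Pax6, whereas in all Cre- and tHet libraries it was below. The order of the rest was that of Cre-, from Meis2 at 19.2 to Lhx2 at 4.44, and Meis2 overlapped Six3, Six3 overlapped Sox2 and Sox2 overlapped Meis1.

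Six3 and Six6 do not control transcription alone. Proteins of their family recruit EYA coactivators, while DACH and TLE proteins act as their corepressors. Among 18 listed cofactors of the members, 2 were called higher in Tet tcKO versus Cre- and 3 in Tet tcKO versus tHet, where 2.03% and 1.39% of all genes were, and 0 were called lower. Their median log2FC was 0.24 and 0.21, against 0.0012 and -0.06 over all genes. Eya1, a coactivator and phosphatase that partners sine oculis proteins, was at 2.83, 3.94 and 2.23 CPM in the Cre- libraries, 3.67, 4.57 and 2.94 CPM in the tHet libraries and 33.9, 48.0 and 23.5 CPM in the Tet tcKO libraries. The lowest Tet tcKO library was far above the highest control library. The log2FC was 3.32 against Cre- (standard error 0.31, limma adjusted p = 7.89e-07) and 3.04 against tHet (limma adjusted p = 3.26e-06).

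Dach1, which encodes a corepressor, rose from 94.8 to 103 CPM over the Cre- libraries and 85.5 to 105 CPM over the tHet libraries to 246, 225 and 159 CPM in Tet tcKO replicates 1, 2 and 3. It had a log2FC of 1.04 (limma adjusted p = 0.00343) and 1.09 (limma adjusted p = 0.00286). Tle3, a Groucho-type corepressor, rose against tHet (log2FC 1.02, limma adjusted p = 0.00641), and against Cre- it was just under the fold threshold at 0.97 (limma adjusted p = 0.00816). Both had every Tet tcKO library above every control library. The remaining listed partners of Six6 were not called. Tle1 had a log2FC of 0.75 against Cre- (limma adjusted p = 0.0450) and Dach2 one of 0.77 (limma adjusted p = 0.119), and Tle2, Tle4, Eya2, Eya3 and Eya4 lay between -0.25 and 0.26. Eya2 and Eya4 were at 1.63 to 2.09 CPM on average, so Eya1 and Eya3 were the abundant EYA genes in Tet tcKO, Eya3 at 24.0 CPM.

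**Figure D4:**
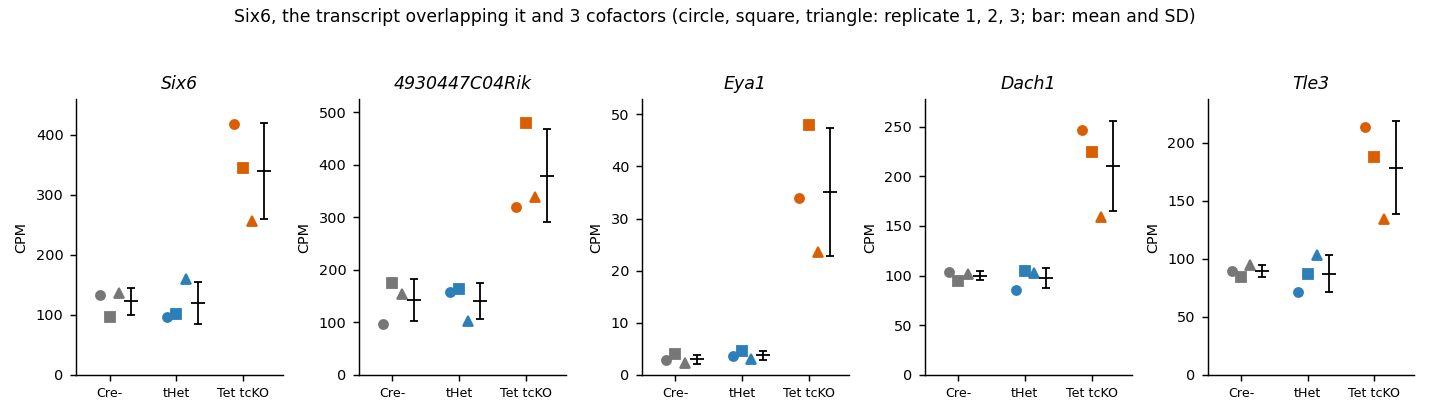
CPM in each library (y axes, linear from 0) of Six6, the overlapping transcript 4930447C04Rik and the cofactors Eya1, Dach1 and Tle3, by genotype (x axes), with circle, square and triangle for replicates 1, 2 and 3 and a bar for the mean and SD of 3 libraries. In each panel the Tet tcKO libraries lie above the control libraries, and Eya1 goes from 2.23 to 4.57 CPM in the controls to 23.5 to 48.0 CPM in Tet tcKO.

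PBX, PKNOX and LDB genes, the partners of MEIS and LIM-homeodomain proteins, had 0 called members in any comparison. Ldb1 was above every control library in all Tet tcKO libraries (log2FC 0.62 against each control, limma adjusted p = 0.0770 and 0.0788). Pknox1 was below every Cre- library in all Tet tcKO libraries (log2FC -0.45, limma adjusted p = 0.4325) and overlapped tHet. The Tet tcKO libraries of the others overlapped both controls. Of 9 listed paralogs, 7 were tested and 0 were called in any comparison, against 3.6%, 3% and 0.0422% of all genes. Against Cre- 7 of 7 had a positive log2FC (median 0.31), and against tHet 6 of 7 did (median 0.38), all but Six2 (-0.84). Lhx9 and Pax2 were above every control library in all Tet tcKO libraries. Lhx9 had a log2FC of 0.87 against Cre- and 1.02 against tHet (limma adjusted p = 0.05769 and 0.02465), and Pax2 averaged 1.76 CPM in Tet tcKO. Of 8 other regulators of the eye field and optic cup, 6 were tested and 0 were called, and their median log2FC was -0.11 against Cre-. Nr2e1 was above every control library in all Tet tcKO libraries (log2FC 0.66 and 0.85, limma adjusted p = 0.2287 and 0.0895). The other tested regulators overlapped both controls. The listed transcripts at member loci were Pax6os1, Six3os1 and Sox2ot, a list that does not hold 4930447C04Rik (called higher, above), and 0 of these 3 were called. Six3os1, which runs opposite to Six3 and shares 106 exon bases with it, was at 59.1 to 65.9 CPM in the Cre- libraries. It was at 75.2 to 99.2 CPM in the tHet libraries, above all of Cre-, and at 87.9 to 118 CPM in the Tet tcKO libraries, overlapping tHet. Its log2FC was 0.64 against Cre- (limma adjusted p = 0.0748) and 0.24 against tHet (limma adjusted p = 0.623).

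Lists of cell type markers are given beside the members, since the RNA came from whole retina. No listed marker was at 0 in all libraries of a genotype. Rod markers summed to 26506 to 36649 CPM in the control libraries and to 3242 to 10665 CPM in Tet tcKO, and 7 of 8 were called lower against both controls. Cone markers summed to 442 to 577 CPM in the controls and 1093 to 1636 CPM in Tet tcKO, and 6 of 8 were called higher, such as Gnat2 (log2FC 1.91 against Cre-).

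For the cell types in which the members are mainly found, few markers were called. Müller glia markers summed to 1998 to 2775 CPM in the controls and 1902 to 2472 CPM in Tet tcKO, with Apoe called higher and Glul and Rlbp1 called lower against both controls. Of these 10 markers 6 had a positive log2FC in each comparison with Tet tcKO (medians 0.15 and 0.25). Sox9 was above every control library in all Tet tcKO libraries without being called, with a log2FC of 0.70 against Cre- (limma adjusted p = 0.0745) and 0.88 against tHet (limma adjusted p = 0.0209). Amacrine markers summed to 741 to 1052 CPM in the controls and 521 to 1078 CPM in Tet tcKO, with Slc6a9 called lower. Of these 10 markers 5 were positive against Cre- and 7 against tHet (medians -0.05 and 0.28). Gad2 had a log2FC of 0.86 and 1.06 (limma adjusted p = 0.0852 and 0.0289) without being called, and its Tet tcKO libraries overlapped both controls. Calb2, also not called, went the other way at -0.96 and -1.07 (limma adjusted p = 0.0397 and 0.0229). Every Tet tcKO library of Calb2 was below every control library. Horizontal cell markers had 0 of 4 called, and summed to 92.4 to 176 CPM in the controls and 56.1 to 118 CPM in Tet tcKO, and all 4 had a negative log2FC against both controls (medians -0.53 and -0.47). Of the ganglion cell markers 0 of 8 were called against Cre- and 1, Sncg, was lower against tHet. The sums of that list were 1206 to 2941 CPM in the controls and 783 to 1233 CPM in Tet tcKO, and 2 of the 8 were positive against Cre- and 3 against tHet. These sums do not measure cell numbers, because the most abundant markers weigh most in each sum. Glul, called lower, averaged 1009.5 of the 2474 CPM of the Müller glia sum for Cre-. Its Tet tcKO mean was 388 CPM. The share of CT010467.1 also lowers every sum of Tet tcKO replicate 3. The part of cell numbers in the rise of Six6 was not tested.

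Bipolar markers summed to 1086 to 1801 CPM in the controls and 956 to 1682 CPM in Tet tcKO, with Cabp5 called higher against both controls and Trpm1 and Prkca called lower against Cre-. Progenitor markers, of interest because the eye field genes act in progenitors, summed to 34.9 to 43.5 CPM in the controls and 41.1 to 62.1 CPM in Tet tcKO. With CT010467.1 taken out the Tet tcKO sums were 47.8 to 62.1 CPM and no longer overlapped the controls. Pcna made up the largest part of the sum, at 18.4 to 32.1 CPM in the controls and 17.2 to 22.9 CPM in Tet tcKO. The other 5 tested markers, Mki67, Top2a, Ccnd1, Sfrp2 and Hes5, were above every control library in all Tet tcKO libraries, and the median log2FC of the list was 0.96 against Cre- and 1.16 against tHet. Mki67 and Top2a, both expressed in dividing cells, were called higher against Cre- at means of 5.55 and 2.43 CPM, and 0 of 6 tested were called against tHet. In tHet versus Cre-, every tHet library was above every Cre- library for Mki67 and Top2a (log2FC 1.24 and 0.60, not called). Ccnd1, Sfrp2 and Hes5 overlapped there, as did all members. Pcna was below every Cre- library in all Tet tcKO libraries (log2FC -0.52) and also in all tHet libraries (log2FC -0.50, not called). Its Tet tcKO and tHet libraries overlapped. The part of these markers in the levels of the members was not tested. Ciliary body and pigment epithelium markers summed to 37.3 to 158 CPM in the Cre- libraries, 173 to 307 CPM in the tHet libraries and 74.1 to 135 CPM in the Tet tcKO libraries. In that list Optc was called higher in tHet and in Tet tcKO against Cre-, Rpe65 was called lower in Tet tcKO against both controls, and Tyr, Dct and Ttr were called lower against tHet. Since the ciliary epithelium also expresses eye field genes, this difference between the controls stands beside every comparison of the members, and its part was not tested. Microglia markers summed to 20.1 to 39.4 CPM in the controls and 32.6 to 65.2 CPM in Tet tcKO, with Cx3cr1 called higher against Cre-.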

How the data were processed

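Ribosomal RNA was removed from total RNA of P21 retinas before stranded library preparation. The authors trimmed reads (Trim Galore 0.6.7), aligned them to mm10 (STAR 2.7.0f), counted them per gene (HTSeq 0.11.2) and deposited CPM, divided by each library's total on genes. The annotation release and strand setting are not given in the sources used here. The deposited table also held the authors' own edgeR comparisons (log2 fold change, mean log2 CPM, p-value, FDR) and genotype means, none of which were used.

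Reads were recovered from the CPM (100% of positive values whole, tolerance 0.01 read). One read was worth 0.0474 to 0.104 CPM, and depth limits low values by counting error only. Of the gene identifiers, 54349 matched GENCODE vM21 (GRCm38), used for positions. No libraries were identical.

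The 21330 genes that reached 0.5 CPM in 3 or more of the 9 libraries were tested on log2(CPM + 0.5), using limma 3.58.1 under R 4.3.3 (eBayes with trend), 1 mean per genotype, Benjamini-Hochberg over all genes. The pseudocount understates fold changes of low genes. Genes were called at an absolute log2FC of at least 1 and adjusted p under 0.01. Libraries are separate pools of animals, and p-values measure the spread between them. Alternatives were pseudocounts of 0.1 and 1, no filter, at least 1 CPM, upper-quartile and TMM scaling, CT010467.1 left out, edgeR 4.0.16 and DESeq2 1.42.0 on recovered reads, a replicate block, only the 6 libraries compared, each library left out, and adjusted p under 0.05 with no fold threshold. The tests were tested on simulated data.

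The members and lists were chosen with earlier results of these data known. All 8 members are described. A listed gene is named where called, or where it is a paralog, cofactor or overlapping transcript of a called member. Marker genes are named as called examples, and some that were not called are also named. 4930447C04Rik, Gm28528, Lhx9, Pax2, Ldb1, Pknox1 and Nr2e1 were named after their values were seen. Some listed genes are not reported here by name. DNA methylation was not analysed here. Figures were drawn with matplotlib 3.10.9.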

Additional observations from a re-analysis of the deposited data

How the results depend on the processing

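The counts of members called, 1, 1 and 0 in the 3 comparisons, did not change under any of the 63 recomputed values. Of 480 recomputed log2FC values of single members, 473 kept their sign and their call at both thresholds together, and 7 changed sign, all with 1 library left out and none of them called. Meis2 in Tet tcKO versus Cre- ran from -0.07 (-0.0737, without Tet tcKO replicate 2; -0.0282 without replicate 1) to 0.32 over the left-out libraries, and Meis2 in Tet tcKO versus tHet from -0.0195 (without Tet tcKO replicate 2) to 0.37. Six6 in tHet versus Cre- ran from -0.29 to 0.07, with 0.0092 and 0.0262 without Cre- replicates 1 and 3 and 0.0725 and 0.0311 without tHet replicates 1 and 2. Over all alternatives the log2FC of Six6 ran from 1.29 to 1.64 against Cre- (adjusted p 1.64e-05 to 0.00924) and from 1.36 to 1.75 against tHet (adjusted p 4.35e-06 to 0.00782). Members that were not called reached an adjusted p under 0.05 under some alternatives, Rax against Cre- under 8 of 20, Meis1 under 5, Pax6 under 2 and Lhx2 under 1, and against tHet Sox2 under 5, Lhx2 under 4 and Pax6, Rax and Six3 under 1 each. The causes were not tested.

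The number of genes called in all depended more on the setting. With no filter it was 417, 351 and 1 in place of 768, 640 and 9, with DESeq2 1145, 1046 and 40, and with only the 6 libraries compared 980, 1013 and 1. Upper-quartile scaling, TMM scaling, edgeR and leaving out CT010467.1 each gave 1 call in tHet versus Cre-. With 1 library left out the counts ran from 360 to 976, from 287 to 959 and from 0 to 17. The lowest were without Tet tcKO replicate 1 in both comparisons with Tet tcKO, and the 0 in tHet versus Cre- was without Tet tcKO replicate 3. A share of called genes that were higher of 56.5% against Cre- became 73.3% with CT010467.1 left out, and one of 46.4% against tHet became 66.4%. Without Tet tcKO replicate 3 these shares were 77.0% and 76.1%, and without Tet tcKO replicate 2 they were 40.0% and 29.6%.

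The replicate numbers were checked for pairing. Deviations of same-numbered libraries from their group means correlated at -0.35 to 0.56 over 9 pairs, over 0.1 in 5 of them. Their mean was 0.11, against -0.05 for pairs with different numbers. These pairs share libraries, so the check cannot decide whether the numbers mark a pairing. The main test took the numbers only as names. With the replicate number as a block, the counts of members called stayed at 1, 1 and 0 and those of all genes were 1127, 1125 and 40. No member changed its call, but Rax against Cre- (adjusted p = 0.0199) and Lhx2 and Sox2 against tHet (0.0494 and 0.0371 by limma) came under 0.05 with the block. The number of libraries, 3 per genotype, limits the precision of each value, and an exact permutation test of 3 against 3 cannot go below 0.1.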
